A study of Mus musculus with 4 samples.

Results

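The 10 genes described here belong to the amino acid stress response that centres on the transcription factor Atf4. They were chosen by name: Atf4, Atf3, Atf5, Ddit3, Cebpb, Cebpg, Trib3, Asns, Sesn2 and Ppp1r15a, 10 of 21900 protein-coding genes. The choice was made with earlier results of these data known. For each, every H3K79me2 peak touching the RefSeq gene body or the 2 kb on either side was taken. The peaks come from ChIP-seq, the sequencing of DNA pulled down with an antibody to the mark. The cells were BMDCs, bone marrow-derived dendritic cells grown from C57BL/6J marrow, which present antigen. One culture was given PBS and the other 18 mM lysine for 6 h, and the labels state no time for PBS. Of the 4 samples, 1 H3K79me2 and 1 input library per condition, the broad and gapped peak lists of the H3K79me2 libraries were used. Without replicates, no difference between the libraries could be set against a spread and no test was made. Read totals are absent from the peak lists, and the depth is therefore unknown. Coordinates are on GRCm38.

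When amino acids run short or proteins misfold in the endoplasmic reticulum, kinases phosphorylate the initiation factor eIF2. General translation then slows while the Atf4 mRNA is translated more. Atf4 pairs with C/EBP proteins on composite DNA sites and switches on genes of amino acid synthesis, transport and stress signalling, among them Asns, Trib3, Sesn2, Ddit3 and Atf3. H3K79me2, a dimethyl mark on a lysine of the histone H3 core, is placed by the methyltransferase Dot1l. It typically lies over the first part of transcribed genes, just past the start site.

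The PBS list held 11926 peaks over 6.78 Mb and the lysine list 9805 peaks over 5.40 Mb, 0.796 of the PBS length. Of 14 genes that mark dendritic and other myeloid cells, 10 carried a PBS peak and 8 a lysine peak. Over all protein-coding genes the shares were 36.9% and 34.0%, and they apply to the other marker counts here too. Itgax, Cd86 and Csf1r had a peak in both lists, and H2-Ab1 (2602 and 0 bp) and Zbtb46 (310 and 0 bp) in PBS alone, whereas H2-Aa, Irf4, Csf2rb and Spi1 carried none. No peak was called on 6 B cell, 5 erythroid and 5 stromal or endothelial markers. Of 7 T and NK cell markers 1 (Klrb1c) had a peak in each list, and of 6 neutrophil markers S100a8 had one in PBS and Camp one in lysine. The share of other cells in the cultures was not tested.

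The sequences below are the 250 bases before the annotated start of 4 of the genes, which differ in how they were called. They come from RefSeq (GRCm38.p6), are written 5′ to 3′ on the gene's strand, and have the core of the composite C/EBP and ATF site in capitals where it occurs. The core searched was TGATGNAA on both strands. Atf4 is at chr15:80254934-80255183 (plus strand) and Atf3 at chr1:191183334-191183583 (minus strand), and all 250 bases of each lay under a peak in both lists. Cebpb is at chr2:167688665-167688914 (plus strand), with all 250 bases under the PBS peak and 0 in lysine. Asns is at chr6:7693210-7693459 (minus strand), with 0 bases under a peak in PBS and 125 in lysine.
Atf4: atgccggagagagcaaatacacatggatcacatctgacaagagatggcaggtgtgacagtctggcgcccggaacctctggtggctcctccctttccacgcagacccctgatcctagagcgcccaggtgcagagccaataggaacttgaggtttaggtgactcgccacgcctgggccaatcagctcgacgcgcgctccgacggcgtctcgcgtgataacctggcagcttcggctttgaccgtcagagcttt
Atf3: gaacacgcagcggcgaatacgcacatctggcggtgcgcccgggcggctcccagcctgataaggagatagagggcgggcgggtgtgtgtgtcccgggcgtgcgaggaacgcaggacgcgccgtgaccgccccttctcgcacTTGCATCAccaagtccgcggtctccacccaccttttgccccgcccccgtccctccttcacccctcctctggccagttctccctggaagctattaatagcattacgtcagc
Cebpb: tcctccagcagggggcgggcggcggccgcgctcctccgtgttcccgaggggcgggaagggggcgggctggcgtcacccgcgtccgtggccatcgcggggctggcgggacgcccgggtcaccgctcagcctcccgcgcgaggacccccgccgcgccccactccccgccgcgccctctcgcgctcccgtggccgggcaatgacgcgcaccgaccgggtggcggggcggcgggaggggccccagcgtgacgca
Asns: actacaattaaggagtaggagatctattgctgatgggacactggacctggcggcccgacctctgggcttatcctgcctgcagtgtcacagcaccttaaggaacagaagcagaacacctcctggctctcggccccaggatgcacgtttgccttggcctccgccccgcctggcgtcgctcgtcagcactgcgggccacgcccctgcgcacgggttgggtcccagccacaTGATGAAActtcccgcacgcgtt

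The core was found in the 250 bases before the start in 2 of the 10 genes, and in 571 of 17492 promoters of protein-coding genes in the same table (3.26%). In Atf3 it read TTGCATCA, 110 bp before the start, under a peak in both lists. In Asns it read TGATGAAA, 23 bp before the start, under the lysine peak and under no PBS peak. In Trib3 a further match, TTACATCA, lay 14 bp past the start and under both peaks. With the 50 bases past the start included, 3 of 10 genes and 3.68% of promoters held the core. The full cyclic AMP response element TGACGTCA, bound by ATF and CREB dimers, was found before 1 of the 10 starts, that of Ppp1r15a, and in 1.98% of promoters. The endoplasmic reticulum stress element, bound by Atf6 with NF-Y, was before none of the 10 and in 0.149% of promoters. These windows are short, and a match is a description of the letters and not a site.

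Nearly all of these genes carried called H3K79me2, and it lay at their starts. PBS peaks lay on 9 of 10 genes and lysine peaks on 9 of 10, compared with 36.9% and 34.0% of all protein-coding genes. Asns had none in PBS and Cebpb none in lysine, so 8 genes had peaks in both lists (29.5% of all genes). The annotated start itself was under a peak in 9 genes in PBS and 8 in lysine, against 25.0% and 23.5% of the 17492 genes with a start in the promoter table. Among genes with a peak these shares were 66.2% and 67.7%. The exception in lysine besides Cebpb was Atf5, whose peak began 133 bp past the start. A covered length of at least 500 bp was reached by 9 and 8 of the 10 genes (21.5% and 18.7% of all genes). The shares over all genes include genes that may be silent in these cells, and RNA levels were not measured here. The 10 genes were chosen with earlier results of these data known, so their counts beside these shares are a description and not a test.

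**Figure D1:**
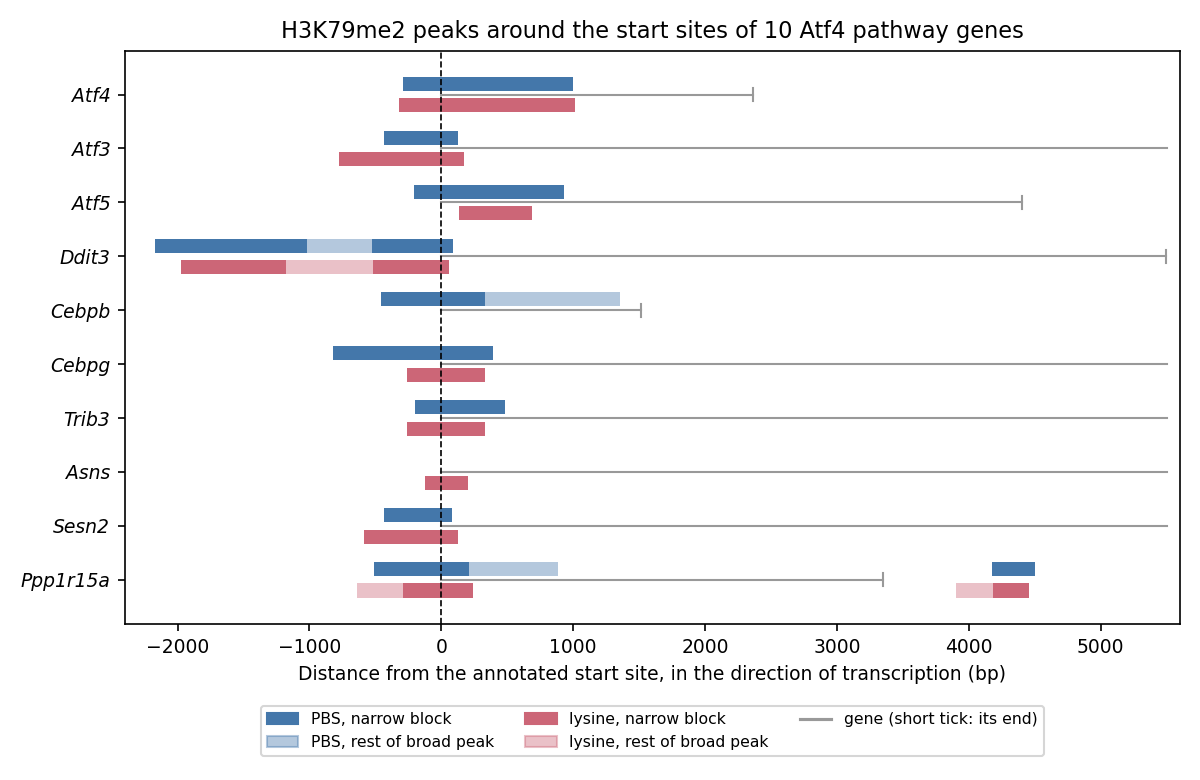
Broad H3K79me2 peaks of the PBS (blue) and lysine (red) library around each gene's annotated start site (dashed line), by distance in bp along the direction of transcription, with narrow blocks in full colour. Peaks sit on the start in 9 genes in PBS and 8 in lysine. Those of Ddit3 extend almost wholly before the start and those of Atf4 mostly past it.

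Atf4, the central activator, is a short gene of 2362 bp (chromosome 15, 80255184 to 80257545) and had almost the same peak in both libraries. The PBS peak (80254896 to 80256179, 1284 bp) ran from 288 bp before the start to 995 bp past it. The lysine peak (80254860 to 80256194, 1335 bp) ran from 324 bp before to 1010 bp past, and held the whole PBS peak within it. In each list it was 1 unbroken narrow block. The peak covered 42.2% of the gene in PBS and 42.8% in lysine. Its fold enrichment over local background, the authors' value, was 7.64 within the PBS list and 7.36 within the lysine list. It was stronger by −log10 q than 94.5% and 93.7% of the peaks of its own list. No other gene overlaps it, and Mief1, the nearest neighbour, had no peak inside the window.

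Atf3, an activating transcription factor induced by stress, had 567 bp under its PBS peak and 953 bp under its lysine peak. The gene spans 13038 bp on the minus strand (chromosome 1, 191170296 to 191183333). Its PBS peak (191183205 to 191183771) lay entirely within the lysine peak (191183159 to 191184111). The 2 peaks reached 128 and 174 bp into the gene, and 438 and 778 bp before its start. Most of the extra 386 bp in lysine thus lay before the start. Lysine was at least 1.5 times PBS in 1 of the 8 genes with peaks in both lists, Atf3, and in 11.8% of all such genes.

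Atf5, a related factor with a role in the mitochondrial stress response, had 1136 bp under its PBS peak and 551 bp under its lysine peak. The gene spans 4403 bp on the minus strand (chromosome 7, 44812256 to 44816658). The PBS peak (44815732 to 44816867) ran from 209 bp before the start to 926 bp past it, and the lysine peak (44815975 to 44816525) from 133 to 683 bp past it. The lysine peak lay inside the PBS peak and took up 48.5% of its length. In its own list the PBS peak was stronger than 95.1% of peaks by −log10 q (13.1), and the lysine peak than 61.3% (4.63). Nup62, a nuclear pore gene, starts in the opposite direction 570 bp away, inside Atf5, and Il4i1b 288 bp away. These neighbours share 780 bp of the PBS and 438 bp of the lysine covered length.

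Ddit3 encodes the stress factor Chop, a partner of C/EBP proteins (chromosome 10, 127290793 to 127296291, plus strand). Its window had the most covered length of the 10, with 2087 bp (PBS) and 2036 bp (lysine). Only 87 and 61 bp of it lay in Ddit3 itself. The PBS peak (127288622 to 127290879, 2258 bp) began 2171 bp before the start and ended 86 bp past it, and the lysine peak (127288818 to 127290853, 2036 bp) ran from 1975 bp before to 60 bp past. Each held 2 narrow blocks. In PBS they measured 1156 bp (127288622 to 127289777) and 609 bp (127290271 to 127290879), and in lysine 798 bp (127288818 to 127289615) and 581 bp (127290273 to 127290853). Mbd6, a methyl-CpG-binding domain gene on the other strand, starts 76 bp away inside Ddit3 and runs through this stretch. Mbd6 held 2077 bp of the PBS and 2036 bp of the lysine covered length, so the peaks lay along Mbd6 rather than along Ddit3. The list has no strand, so the mark of the 2 genes cannot be told apart at their shared start. The 3 genes elsewhere whose covered lengths in PBS and lysine came closest to this pair, over the 2 libraries, were Crlf2 (2078 and 2027 bp), Ptma (2075 and 2022 bp) and Cd47 (2075 and 2062 bp), at distances of 12.7, 18.4 and 28.6 bp.

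Cebpb encodes C/EBP beta, a regulator of myeloid and inflammatory genes that dimerises with Atf4. It had 1813 bp under its PBS peak and 0 bp under lysine peaks. The gene is 1518 bp long (chromosome 2, 167688915 to 167690432), and the PBS peak (167688459 to 167690271) covered 89.4% of it, from 456 bp before the start to 1356 bp past. The nearest lysine peak was 24.9 kb away. The PBS peak was wide, wider than 98.6% of its list, but weak, with an enrichment of 3.84-fold and −log10 q 2.45, stronger than 19.4% of its list. Its narrow block was 789 bp long and ended 332 bp past the start. Among peaks whose −log10 q reached 5, or whose fold reached 4, Cebpb had none in PBS or in lysine. A gene without a called peak may hold sub-threshold mark.

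Cebpg, which encodes C/EBP gamma, another dimer partner of Atf4, had 1213 bp under its PBS peak and 592 bp under its lysine peak. The gene spans 10145 bp on the minus strand (chromosome 7, 35046422 to 35056566). The lysine peak (35056237 to 35056828) lay inside the PBS peak (35056177 to 35057389). The 2 differed mainly before the start, where the PBS peak reached back 823 bp and the lysine peak 262 bp. Past the start they ended at 389 and 329 bp. All of both peaks also lies on Gm45095, a predicted gene on the opposite strand that spans the start of Cebpg. Within its list the lysine peak was stronger by −log10 q (11.8) than 94.3% of peaks, and the PBS peak (6.91) than 78.5%. PBS was at least 1.5 times lysine in 2 of the 8 genes, Atf5 and Cebpg, and in 22.5% of all genes with peaks in both lists.

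**Figure D2:**
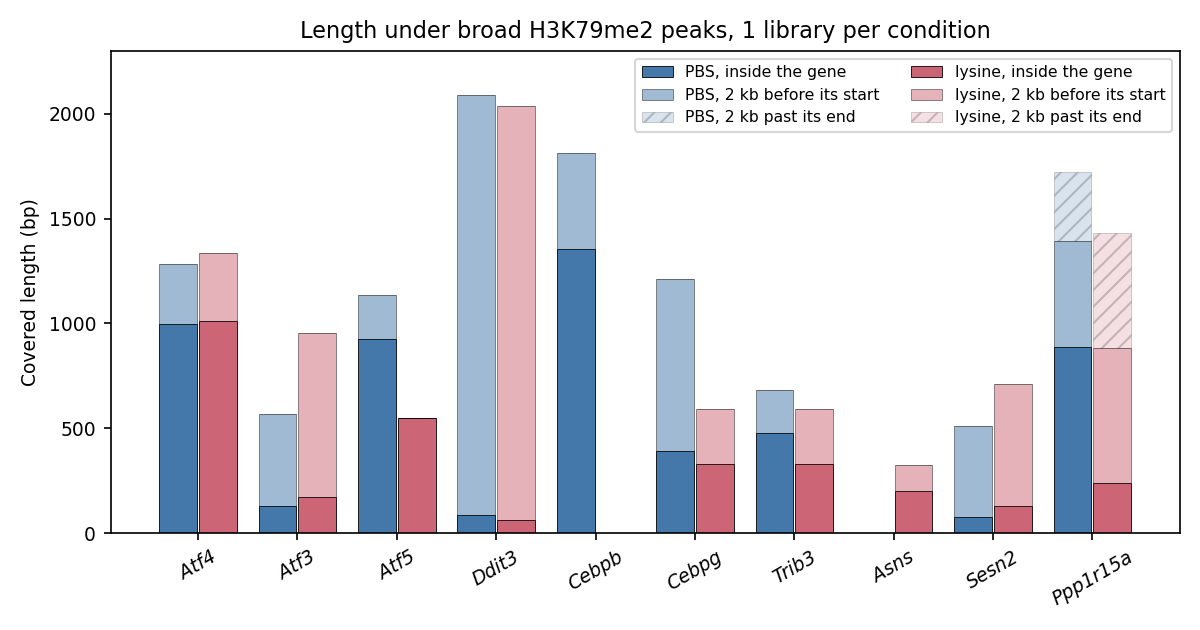
Length in bp under broad peaks for each gene in PBS (blue) and lysine (red), 1 library each, divided into the gene itself (full colour), the 2 kb before its start (pale) and the 2 kb past its end (hatched). Ddit3 leads with 2087 and 2036 bp, nearly all before its start, and the largest difference is that of Cebpb (1813 and 0 bp).

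Trib3 encodes a pseudokinase induced by Atf4 that in turn restrains it (chromosome 2, 152337425 to 152344060, minus strand). It had 683 bp under its PBS peak and 590 bp under its lysine peak. The PBS peak (152343581 to 152344263) ran from 203 bp before the start to 479 bp past, and the lysine peak (152343732 to 152344321) from 261 bp before to 328 bp past. They shared 532 bp. Their −log10 q was 4.40 in PBS and 5.10 in lysine, on either side of the stricter minimum of 5, and with that minimum the difference became 590 bp in favour of lysine.

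Asns, asparagine synthetase, is the classical amino acid response gene (chromosome 6, 7675165 to 7693209, minus strand). It had 0 bp in PBS and 326 bp in lysine. The single lysine peak (7693009 to 7693334) ran from 125 bp before the start to 200 bp past and covered 1.11% of the 18045 bp gene. It was one of the weakest of its list, with an enrichment of 3.44-fold and −log10 q 1.53, stronger than 2.74% of the lysine peaks, and a minimum −log10 q of 2 removed it. The nearest PBS peak was 151 kb away.

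Sesn2 encodes sestrin, a leucine sensor upstream of mTORC1 (chromosome 4, 132492804 to 132510456, minus strand). It had 511 bp under its PBS peak and 712 bp under its lysine peak, with the PBS peak (132510378 to 132510888) inside the lysine peak (132510329 to 132511040). These reached back 432 and 584 bp from the start and only 78 and 127 bp into the gene. Both were strong in their own lists, above 93.4% and 92.1% of peaks by −log10 q.

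Ppp1r15a encodes Gadd34, the phosphatase subunit that reverses eIF2 phosphorylation (chromosome 7, 45522917 to 45526268, minus strand). Its 2 peaks in each list covered 1720 bp (PBS) and 1432 bp (lysine). The start-site peak was 1393 bp in PBS (45525383 to 45526775) and 881 bp in lysine (45526028 to 45526908). It reached 885 bp into the gene in PBS and 240 bp in lysine, so that 26.4% and 7.19% of the gene was covered. The narrow blocks of these peaks were closer, 717 bp in PBS (45526059 to 45526775, reaching 209 bp into the gene) and 529 bp in lysine (45526028 to 45526556, reaching 240 bp). A second, weak peak lay past the end of the gene on Tulp2, 327 bp in PBS (45521767 to 45522093) and 551 bp in lysine (45521814 to 45522364, with a block of 274 bp from 45521814 to 45522087). Their −log10 q was 1.80 and 1.81. With both lists held to 9805 peaks the PBS peak there drops out and the difference over the window turned from -288 to 39 bp. Among peaks whose −log10 q reached 5 it was 881 bp in favour of lysine.

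Ppp1r15a shares its start region with Plekha4, which begins 62 bp away and runs the other way, and 446 bp of the PBS and 579 bp of the lysine covered length lay on Plekha4. The 61 bases between the 2 starts (chr7:45526269-45526329, minus strand, RefSeq GRCm38.p6) were wholly under a peak in both lists. They hold the TGACGTCA element, in capitals, 12 bp before the start of Ppp1r15a.
Ppp1r15a: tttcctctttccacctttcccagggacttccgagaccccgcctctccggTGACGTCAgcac

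The start-site peaks ranged from strong to weak within each list. The Atf5 lysine peak, which began 133 bp past the start, is ranked with them. In PBS those of Atf4, Atf3, Atf5 and Sesn2 were above 93.4% or more of the list by −log10 q, Cebpg and Ddit3 above 78.5% and 70.1%, Trib3 above 55.9%, and Ppp1r15a and Cebpb above 41.5% and 19.4%. In lysine Cebpg, Atf4, Sesn2 and Atf3 were above 89.95% or more, Ppp1r15a above 85.3%, Trib3, Ddit3 and Atf5 between 61.3% and 66.5%, and Asns above 2.74%. Atf4, Atf3 and Sesn2 were thus above 89.95% or more of both lists. The median fold of the peaks that cover a start, which leaves out the Atf5 lysine peak, was 5.71 in PBS and 6.40 in lysine. The list medians were 4.52 and 4.48, over all peaks and not only those that cover a start. These sets are thus unlike, and no median was taken over the start-covering peaks of all genes. Ranks come from lists of different length and show no change.

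**Figure D3:**
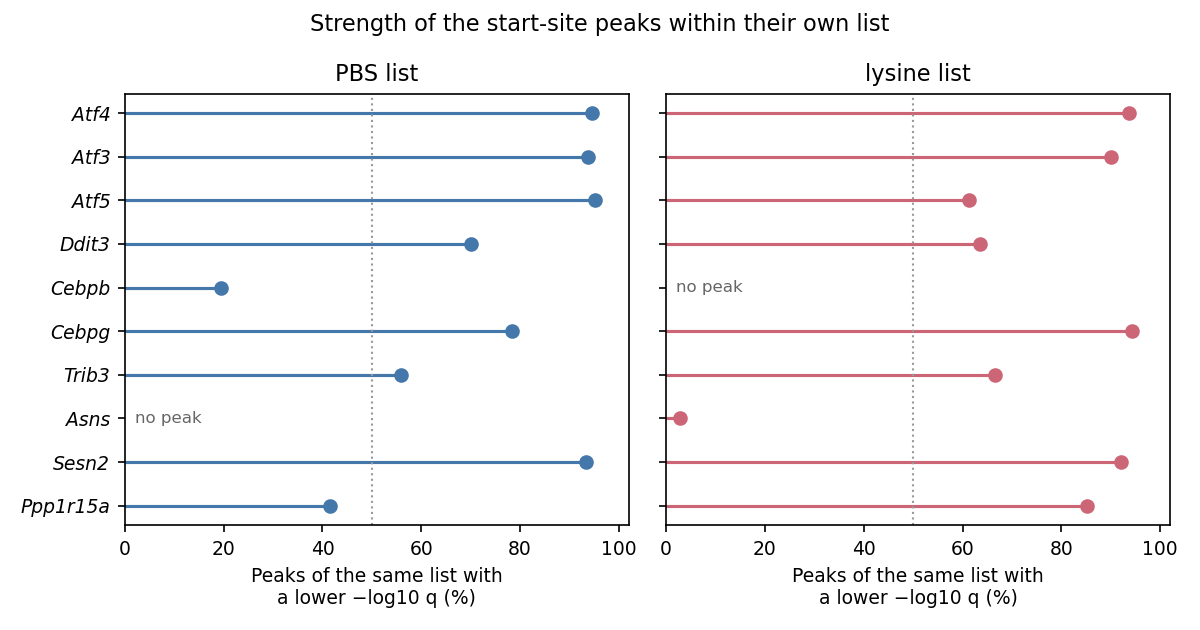
For the start-site peak of each gene, the percentage of peaks in the same list with a lower −log10 q, in the PBS list (left) and the lysine list (right), with the list median as a dotted line. For Atf5 in lysine it is the peak that began 133 bp past the start. Atf4, Atf3 and Sesn2 stand near the top of both lists, and the peaks of Cebpb (19.4%) and Asns (2.74%), called in 1 library alone, near the bottom.

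Set side by side, most peaks on these genes overlapped between the 2 libraries. Of 10 peaks on these genes in PBS 9 overlapped a lysine peak, and of 10 in lysine 9 overlapped a PBS peak, compared with 61.9% and 75.3% over the whole lists. Where 50% of the peak's own length had to overlap, the numbers were 7 and 9, and where 50% of both peaks had to, 7 and 7. The shares over the whole lists were taken for an overlap of 1 bp only, so none stands beside these stricter numbers. The 8 shared peaks at or nearest the start began farther upstream in lysine in 5 genes and farther downstream in 3. Among the 3 was Atf5, whose lysine peak began 133 bp past the start. The peaks ended farther into the gene in lysine in 3 genes, Atf4, Atf3 and Sesn2, by 15 to 49 bp. In 5 they ended nearer to the start, where the shift ran from -26 bp in Ddit3 to -645 bp in Ppp1r15a. By narrow blocks Ppp1r15a went the other way, with 209 bp into the gene in PBS and 240 bp in lysine. No share over all genes was set beside these edge counts.

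Lysine had the shorter covered length in 6 of the 10 genes and the longer in 4 (Atf4, Atf3, Asns and Sesn2), as it was in 59.3% and 40.6% of all genes with a peak in either list. This tally turned to 3 shorter and 5 longer among peaks whose −log10 q reached 5, and was 5 and 5 with equal numbers of peaks. The median per gene was 1175 bp (PBS) and 652 bp (lysine), and 515 and 468 bp over all genes with a peak in either list. The median difference was -72 bp, compared with -64 bp over those genes and 0 bp over all 21900. The 10 genes are short, with a median length of 6.07 kb against 17.1 kb over all genes. The totals were 11014 bp for PBS and 8527 bp for lysine, a ratio of 0.774 against 0.829 for the same sum over all genes. Cebpb alone makes up most of that difference: without it the totals were 9201 and 8527 bp (a difference of -674 bp), a ratio of 0.927. Inside the genes PBS peaks covered 5331 bp and lysine peaks 3027 bp (ratio 0.568, and 0.762 without Cebpb), and in the 2 kb before the starts 5356 and 4949 bp (0.924, and 1.01 without Cebpb). Over the 10583 genes whose start in the table is the gene's end, these ratios were 0.802 inside and 0.913 before the start. On stretches that belong to no other protein-coding gene, PBS peaks covered 6171 bp and lysine peaks 4331 bp, so 44.0% and 49.2% of the covered length was shared with neighbours.

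**Figure D4:**
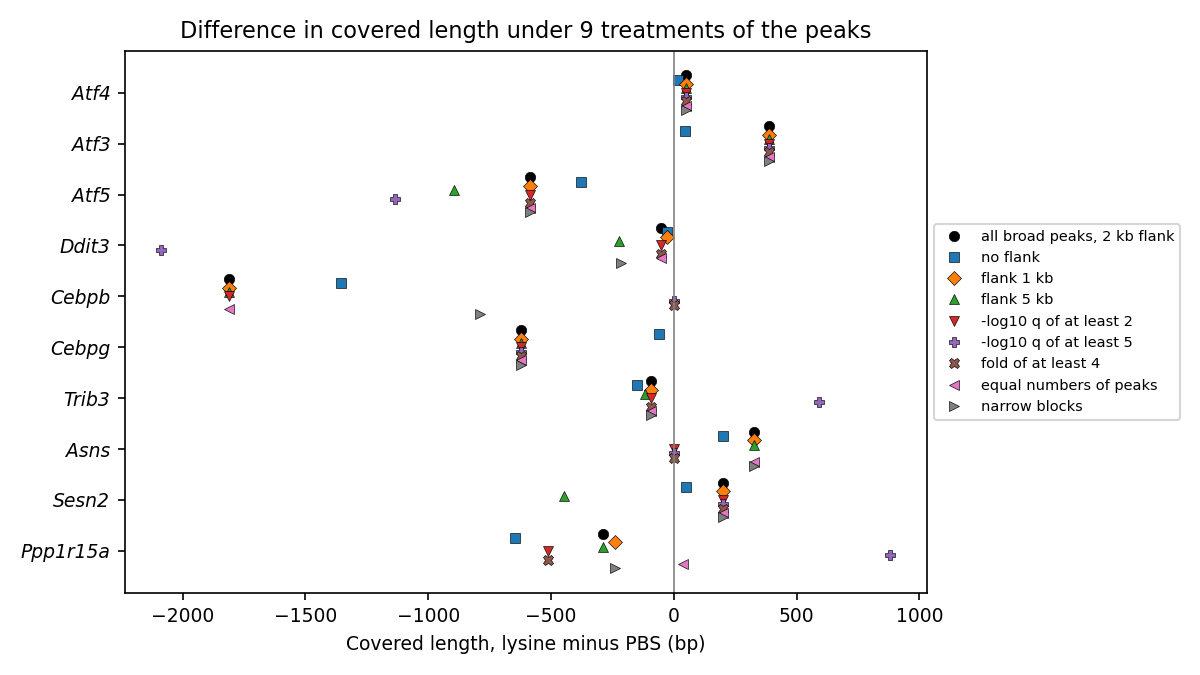
Covered length in lysine minus that in PBS, in bp, for each gene with all broad peaks and the 2 kb flank (black) and under 8 other treatments of the peaks or windows. Atf4 and Atf3 stay above 0 and Atf5, Ddit3 and Cebpg below 0 throughout, while Trib3, Sesn2 and Ppp1r15a have points on both sides.

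Peaks were also frequent on the other genes of the pathway. Of 98 further genes in 6 lists by role, 70 carried a PBS peak, 74 a lysine peak and 64 both. Over all protein-coding genes these shares were 36.9%, 34.0% and 29.5%, and they apply to the counts of each list below. These lists too were chosen with earlier results of these data known. The start was under a peak in 46 of the 74 with a known start in PBS and in 46 in lysine (25.0% and 23.5% of all genes with a known start). A peak in PBS alone was found on 6 (7.42% of all genes) and in lysine alone on 10 (4.47%).

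Of 17 genes that make or remove the eIF2 signal, 12 had a peak in each list (totals of 9.68 kb for PBS and 8.24 kb for lysine). Eif2s1, the eIF2 subunit that is phosphorylated, had 1809 and 772 bp, and Impact, an inhibitor of the amino acid sensing kinase, 1157 and 1579 bp. Dnajc3, an inhibitor of eIF2 kinases, had 1369 and 405 bp. Of 12 bZIP factors, proteins of the same DNA-binding family as Atf4, and their regulators, 9 and 10 had a peak (11.7 and 9.89 kb). Nfe2l2, the oxidative stress factor Nrf2, had 3342 bp in 3 PBS peaks and 1908 bp in 1 lysine peak. Atf6, an endoplasmic reticulum stress sensor, had 1759 and 450 bp, and Jun, the AP-1 subunit, 1275 and 1652 bp.

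With all broad peaks, amino acid synthesis was the list with the most genes called in 1 library alone. Of 15 genes 7 carried a PBS peak and 10 a lysine peak, 5 in lysine alone (Aldh18a1, Aldh1l2, Gpt2, Pck2 and Psat1) and 2 in PBS alone (Shmt1 and Shmt2), with totals of 5.53 and 5.37 kb. These 7 genes are named because of their values. Among peaks whose −log10 q reached 5, the numbers called in 1 library alone were 0 for lysine and 1 for PBS. The list did not then have the most: the aminoacyl-tRNA synthetases had 3 for lysine and 6 for PBS, and the stress effectors 2 and 5. With a minimum fold of 4, amino acid synthesis had 4 for lysine and 2 for PBS, and the synthetases had as many in all, 3 and 3. The lists differ in size, and no share over all genes was taken at these minima. Mthfd2, a mitochondrial folate enzyme, had 1642 and 1037 bp and the aspartate aminotransferase Got1 905 and 985 bp. Shmt2, which makes glycine from serine in mitochondria, had 1100 and 0 bp, and Aldh18a1, of proline synthesis, 0 and 640 bp. The Aldh18a1 peak lay wholly in the 2 kb flank, with 0 bp inside the gene. Without flanks 4 genes of this list were called in lysine alone and 2 in PBS alone.

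Among 12 amino acid transporters 9 carried a PBS peak and 10 a lysine peak (11.8 and 10.5 kb). Slc7a11, the cystine and glutamate exchanger, had 2675 and 1896 bp, and Slc7a5, a carrier of large neutral amino acids, 2042 and 2140 bp. Slc3a2, the heavy chain that serves both, had 1942 and 797 bp. Slc7a6, which exchanges cationic for neutral amino acids, had 0 and 1198 bp. Of 19 aminoacyl-tRNA synthetases, which charge tRNAs with their amino acids, 16 and 15 had a peak (12.8 and 10.1 kb). Qars had 1415 and 1249 bp, Wars 1343 and 928 bp, Vars 1529 and 528 bp, and Sars 0 and 1038 bp.

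Of 23 further stress effectors 17 had a peak in each list (18.5 and 14.3 kb). Bbc3, the apoptosis inducer Puma, had the most covered length, 3356 bp in PBS and 3942 bp in lysine. Siah2, a ubiquitin ligase, had 1622 and 1510 bp. Sqstm1, the autophagy receptor p62, had 2656 bp in PBS, and a lysine peak touched its window by 6 bp only. Most of this difference of -2650 bp lay outside the gene: without flanks it was -656 bp. By narrow blocks it was -875 bp. Fbxw11, an F-box protein of a ubiquitin ligase, had 1074 and 315 bp. Several of these windows also hold neighbours, among them Atp6v1d and Plek2 at Eif2s1, Sae1 at Bbc3, Mrnip at Sqstm1 and Slc7a6os at Slc7a6.

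**Figure D5:**
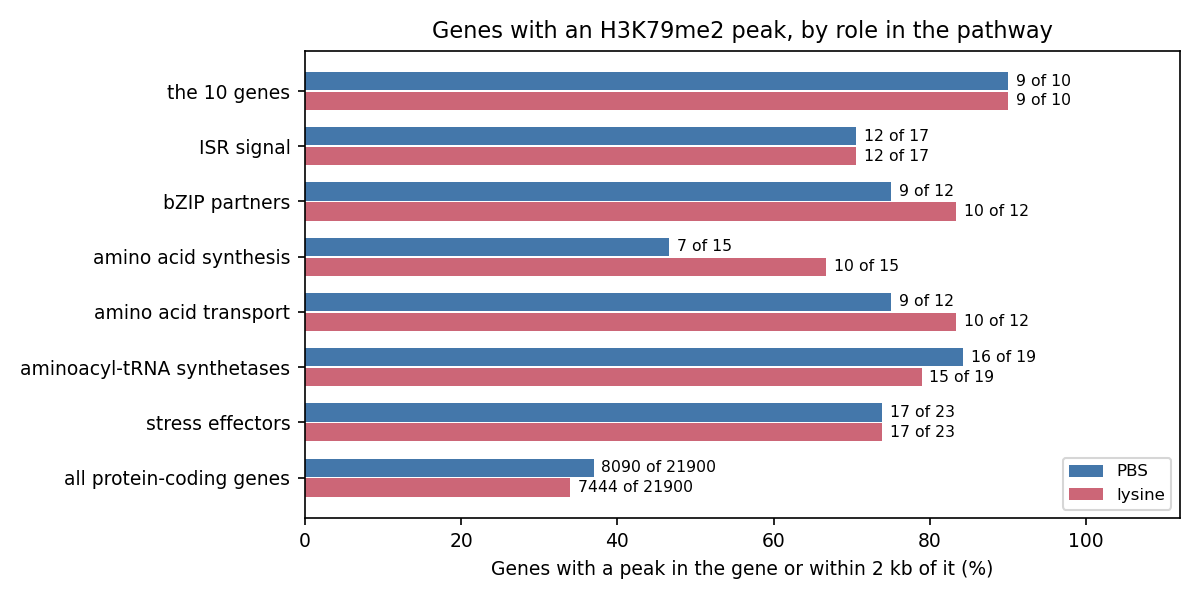
Percentage of genes with an H3K79me2 peak in the gene or within 2 kb of it, for the 10 genes, for 6 lists of other pathway genes and for all protein-coding genes, in PBS (blue) and lysine (red), with the counts beside the bars. The 10 genes reach 9 of 10 in each library, while over all genes it is 8090 and 7444 of 21900.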

How the data were processed

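H3K79me2 peak lists of 1 PBS and 1 lysine library, grouped by sample title, were used, and the inputs were not used here. Per the submitters' processing notes, the tools were MACS2 2.1.2, ChIPseeker, Picard, Bowtie2 2.3.4.1, FastQC, Trimmomatic 0.38 and cutadapt 1.18 and the build GRCm38, with no roles or settings. How peaks were thresholded, and against which control, is not stated there. The authors deposited 1 broad and 1 gapped list per sample, without headers, which were read by the MACS2 column order. Each deposited fold is a linear ratio, the peak's mean signal over local background. The deposited columns of −log10 p and −log10 q give significance, and the deposited score, which was not used, is 10 times −log10 q without decimals for every peak but 1, in lysine. They were used only within a list. Depth is unknown, so no error from it could be given.

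Covered length is the bp of a RefSeq gene (GRCm38.p6) and the 2 kb on either side under broad peaks. Narrow blocks came from the gapped lists, those of 1 bp left out. Starts and strands came from the RefSeq promoter table, taking the start nearest the gene's outer end. All 10 genes matched both tables. An overlap of 1 bp made peaks shared. The 10 genes and the 6 lists of other pathway genes were chosen with earlier results of these data known. Named from each list are the 2 genes with the most covered length over both libraries and the 2 with the largest difference, and for the most covered of the 10 genes the 3 genes nearest in covered length. Alternatives were flanks of 0, 1 and 5 kb, minimum −log10 q of 2 and 5, fold of at least 4, equal numbers of peaks, and narrow blocks. Leaving out genes or neighbours was added after seeing the data. Python 3.11.15, numpy 2.4.6, pandas 2.3.3 and matplotlib 3.10.9 were used. Covered lengths were tested on simulated data and checked against bedtools 2.31.1, with 0 differences over 21900 windows.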

Additional observations from a re-analysis of the deposited data

How the results depend on the processing

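With 1 library per condition, nothing here can be set against replicate error, and a missing peak may be mark below the calling threshold at a depth that is unknown. No paired analysis was possible because each condition has 1 H3K79me2 library. Peaks were found on 6 to 9 genes in either library under all 8 alternatives, and the total stayed shorter in lysine in each, while the number of genes shorter in lysine ranged from 3 to 7 and of those longer from 3 to 5. The shares over all genes given above hold for all broad peaks and the 2 kb flank, and were not taken under the alternatives. A minimum −log10 q of 5, for example, left 4423 PBS and 3384 lysine peaks. Without flanks the totals were 5331 bp (PBS) and 3027 bp (lysine), and with a minimum −log10 q of 5 they were 6798 and 5063 bp. That last difference, -1735 bp, was smaller in size than the -2087 bp of Ddit3 alone at the same minimum. The Ddit3 lysine peak (−log10 q 4.82) fell below the minimum and its PBS peak (5.71) did not. The direction of the total at that minimum thus rested on 1 gene near the cut. The difference of the totals was -2487 bp, -1224 bp with a minimum fold of 4 and -1580 bp by narrow blocks. Of 80 differences of single genes under an alternative, 53 stayed within 1.5 times, 23 moved by more and 4 turned. Those that turned were Sesn2 with a 5 kb flank (-447 bp), Trib3 (590 bp) and Ppp1r15a (881 bp) with a minimum −log10 q of 5, and Ppp1r15a with equal numbers of peaks (39 bp). In that last alternative only the longer PBS list loses peaks. Among the named genes of the wider lists 126 of 176 such differences stayed within 1.5 times, 34 moved by more and 16 turned. These alternatives were run on them after the data were seen. Among those that moved, by narrow blocks Eif2s1 went from -1037 to -35 bp, Dnajc3 from -964 to -137 bp and Sars from 1038 to 0 bp. With a minimum −log10 q of 5 the differences of Sars, Slc7a6 and Aldh18a1 were 0 bp. Those that turned without flanks were Jun (-16 bp, also with 1 kb), Slc7a5 (-6 bp) and Qars (15 bp). With a minimum −log10 q of 5 they were Got1 (-196 bp), Slc7a5 (-553 bp), Vars (528 bp) and Sqstm1 (6 bp). With a minimum fold of 4 they were Got1 (-196 bp), Slc7a5 (-2042 bp), Qars (710 bp) and Vars (528 bp), and by narrow blocks Slc7a5 (-89 bp), Qars (394 bp), Vars (528 bp) and Bbc3 (-212 bp). The cause of these turns was not tested.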

Other observations

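Beyond the 2 kb windows, up to 10 kb from the genes, peaks were called near 3 of the 10. No share over all genes was taken for this zone, so whether that number is usual cannot be said. Before Sesn2, in a stretch without an annotated gene, both libraries had a peak about 5 kb from the start, 400 bp in PBS (chromosome 4, 132515442 to 132515841, −log10 q 5.61) and 346 bp in lysine (132515466 to 132515811, −log10 q 4.28). PBS alone had a further peak of 633 bp there, 3.16 kb before the start (132513611 to 132514243, −log10 q 3.28). Past the end of Trib3 both libraries had a peak on Rbck1, 290 bp in PBS (chromosome 2, 152332429 to 152332718) and 350 bp in lysine (152332341 to 152332690). Before Atf5, PBS alone had a peak of 312 bp within Nup62 and Il4i1b (chromosome 7, 44818935 to 44819246, −log10 q 2.21). Which gene these peaks belong to was not tested.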
